A study of Mus musculus with 18 samples.

Results

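The genes of major histocompatibility complex (MHC) class I antigen presentation were followed in single-cell RNA-seq libraries of mouse ileal epithelium, across epithelial cell types and between *Setdb1*-KO and WT cells. They were 10 genes taken by name (*H2-K1*, *H2-D1*, *B2m*, *Tap1*, *Tap2*, *Tapbp*, *Psmb8*, *Psmb9*, *Psmb10* and *Nlrc5*) out of the 32286 gene features counted. All 10 were present in the count tables, and the rule used none of their values, nor did the sorting of cells into types.

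Class I molecules display peptides from a cell's own proteins at its surface, where CD8 T cells and NK cells read them. A heavy chain (H2-K1 or H2-D1) pairs with the light chain B2m, and the peptide is cut by the proteasome, carried into the endoplasmic reticulum by the Tap1/Tap2 transporter and loaded with the help of tapasin (Tapbp). Interferon gamma raises these genes together, in part through the transactivator Nlrc5, and swaps the catalytic subunits of the proteasome for Psmb8, Psmb9 and Psmb10, which form the immunoproteasome. In the intestine this machinery marks epithelial cells for intraepithelial lymphocytes, and Setdb1 is a histone methyltransferase that deposits the repressive mark H3K9me3.

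The 8 libraries form 2 experiments, each with 2 WT and 2 *Setdb1*-KO libraries, from C57Bl6 mice of 60 to 65 days that all received tamoxifen in corn oil once, at 70 mg/kg into the peritoneum, and were analysed after 5 days. In the Lgr5+ experiment, Lgr5+WT mice carried Lgr5-GFP-CreERT2 and Lgr5+Setdb1KO mice carried Lgr5-GFP-CreERT2 with Setdb1lox/lox. In the lineage-traced experiment, both genotypes carried nTnG in addition, a reporter in the ROSA locus that turns from tdTomato to EGFP after recombination, so that descendants of Lgr5+ cells keep GFP. Cells were sorted by GFP before droplet sequencing of transcript 3′ ends. The knock-in allele also drives Cre in all WT controls, is known to be silenced in some crypts, and in Setdb1lox/lox mice removes an exon of *Setdb1* in cells that express Lgr5. Counting at the 3′ end does not measure that exon, so the *Setdb1* level is no direct check of the deletion. It stood at 11.3 and 9.93 CPM (UMIs scaled to a common total) in Lgr5+WT, at 5.32 and 6.21 in Lgr5+Setdb1KO, at 6.11 and 4.21 in lineage-traced WT and at 10.4 and 7.85 in lineage-traced *Setdb1*-KO.

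Values are counts of unique molecular identifiers (UMIs, 1 per captured RNA molecule), summed over the kept barcodes of a library or of a cell class within it, and given as CPM, the count scaled to a fixed total of UMIs for each sum. One tag is counted per molecule whatever the transcript's length. Barcodes with 1000 (Lgr5+) or 500 (lineage-traced) to 18000 UMIs and under 5% mitochondrial UMIs were kept, 25218 in the Lgr5+ and 26797 in the lineage-traced experiment. Their median depth was 4686 to 9336 UMIs in Lgr5+ and 961 to 2085 UMIs in lineage-traced libraries, and all barcodes together held 16881518 to 81876035 UMIs per library. The lineage-traced libraries differed by genotype beyond the genes followed here. UMIs of Paneth cell markers were 30.4% and 27.7% of the kept UMIs in WT against 6.63% and 4.46% in *Setdb1*-KO, and 53.5% of the barcodes of lineage-traced WT library 2 resembled free RNA, against 13.5% to 19.5% in the other 3 traced libraries. The protocol text names liver for the dissection and ileum for the cell isolation. The epithelial marker *Epcam* stood at 975 to 2662 CPM. Of the liver genes looked at, *Alb* gave 1 to 49 and *Apoh* 8 to 87 UMIs per library. *Ttr*, also taken as a liver gene, gave 266 to 5463 UMIs per library. Any 2 libraries shared 3 to 34 of their kept barcodes.

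Of the genes, 7 lie on chromosome 17, inside or near the MHC, in the RefSeq annotation of build GRCm38.p6. *Tapbp* (ENSMUSG00000024308) spans chr17:33919478-33929290 and *H2-K1* (ENSMUSG00000061232) chr17:33996012-34000619. *Psmb9* (ENSMUSG00000096727, chr17:34182030-34187330), *Tap1* (ENSMUSG00000037321, chr17:34187556-34197225), *Psmb8* (ENSMUSG00000024338, chr17:34198195-34201454) and *Tap2* (ENSMUSG00000024339, chr17:34204479-34216321) follow each other without another member between them. *H2-D1* (ENSMUSG00000073411) spans chr17:35263094-35267497. The light chain gene *B2m* (ENSMUSG00000060802) lies apart at chr2:122147687-122153082, and *Psmb10* (ENSMUSG00000031897, chr8:105935728-105938392) and *Nlrc5* (ENSMUSG00000074151, chr8:94434335-94527272) lie on chromosome 8.

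The promoter windows of 4 of them are printed because they hold between them the motifs for which class I promoters are known. Windows run from 250 bases before to 50 bases after an annotated transcript start (RefSeq, GRCm38.p6), 5′ to 3′ on the gene's strand, and capitals mark motif letters on either strand. The windows matched 8 of the 10 genes, the exceptions being *Tap2* and *Nlrc5*.
H2-K1 (chr17:34000284-34000583, minus strand): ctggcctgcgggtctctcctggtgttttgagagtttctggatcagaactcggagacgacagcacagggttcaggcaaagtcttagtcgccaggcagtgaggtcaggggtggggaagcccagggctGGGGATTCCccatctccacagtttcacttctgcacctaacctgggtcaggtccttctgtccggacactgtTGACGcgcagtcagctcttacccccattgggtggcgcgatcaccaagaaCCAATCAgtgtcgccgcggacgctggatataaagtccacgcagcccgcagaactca
H2-D1 (chr17:35262844-35263143, plus strand): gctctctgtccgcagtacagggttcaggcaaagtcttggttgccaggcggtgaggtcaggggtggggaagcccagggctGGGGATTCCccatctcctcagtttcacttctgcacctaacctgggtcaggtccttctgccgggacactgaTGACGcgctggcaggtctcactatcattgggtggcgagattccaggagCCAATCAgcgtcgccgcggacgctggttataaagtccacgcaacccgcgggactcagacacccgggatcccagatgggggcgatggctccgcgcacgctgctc
B2m (chr2:122147437-122147736, plus strand): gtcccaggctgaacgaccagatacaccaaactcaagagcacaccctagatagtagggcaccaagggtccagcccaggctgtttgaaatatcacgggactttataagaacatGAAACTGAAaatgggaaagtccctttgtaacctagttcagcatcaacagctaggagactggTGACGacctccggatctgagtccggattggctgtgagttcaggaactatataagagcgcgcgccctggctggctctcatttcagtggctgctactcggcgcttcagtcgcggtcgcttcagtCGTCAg
Tap1 (chr17:34187306-34187605, plus strand): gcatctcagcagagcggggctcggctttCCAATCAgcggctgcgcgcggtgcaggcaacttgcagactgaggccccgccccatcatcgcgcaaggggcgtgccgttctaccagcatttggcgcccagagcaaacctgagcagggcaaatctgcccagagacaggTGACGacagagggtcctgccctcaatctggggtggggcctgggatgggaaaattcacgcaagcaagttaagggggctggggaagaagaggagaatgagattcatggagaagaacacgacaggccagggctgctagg
The letters searched on both strands were GGGGATTCC (the kappa B site of class I promoters), TGACG (core of the X2 box), TGATTGG (the Y box, a reversed CCAAT), GAAANNGAA (interferon response element) and TTCNNNGAA (interferon gamma activated site), and none of their matches in these genes overlapped another. *H2-K1* and *H2-D1* shared GGGGATTCC, TGACG and TGATTGG, and of all 32851 windows 0.250% held the first, 20.8% the second and 7.82% the third. *Tap1* held TGACG and TGATTGG, and its window shares 275 bases with that of *Psmb9* on the opposite strand, so that both genes carry the same 2 matches. *B2m* held TGACG and was the member with GAAANNGAA (8.56% of all windows), and *Psmb8* the member with TTCNNNGAA (8.30%), while the windows of *Tapbp* and *Psmb10* held none of the 5. *H2-K1* has a second window, shifted by 14 bases, which holds the same 3 matches. Both lie at starts inside the span given above for this gene, which reaches further upstream. A match is a run of letters and not an observed binding site, and a site with other letters is missed by this search. The lack of a GAAANNGAA match in *H2-K1* and *H2-D1* thus does not show that they lack an interferon response element.

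The heavy and light chain genes and the immunoproteasome subunits were the abundant members in Lgr5+WT libraries, and the transporter genes were low. *H2-D1* stood at 440.2 and 377.5 CPM, *H2-K1* at 407.8 and 316.1 CPM and *B2m* at 360.3 and 336.7 CPM. *Psmb10* (325.1 and 288.3 CPM), *Psmb8* (297.7 and 229.8 CPM) and *Psmb9* (163.5 and 131.1 CPM) came next, ahead of *Tapbp* (37.6 and 32.8 CPM), *Tap1* (17.7 and 14.2 CPM) and *Tap2* (7.12 and 7.76 CPM). *Nlrc5* gave 16 and 8 UMIs in all, 0.416 and 0.193 CPM. In each of the 4 Lgr5+ libraries the 10 genes together took 0.126% to 0.206% of the UMIs.

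In lineage-traced WT libraries the same genes took a smaller share of the UMIs, 0.0643% to 0.0791% over the 4 traced libraries. *H2-D1* stood at 70.0 and 66.2 CPM, *H2-K1* at 170.5 and 154.4 CPM and *B2m* at 229.9 and 218.7 CPM. *Psmb10* (63.0 and 72.5 CPM), *Psmb8* (40.5 and 61.1 CPM) and *Psmb9* (34.0 and 45.7 CPM) were lower than in Lgr5+WT, *Tap1* (5.49 and 5.32 CPM) and *Tap2* (3.14 and 3.59 CPM) likewise, and *Tapbp* stood at 26.8 and 27.3 CPM. The experiments differ in sort, reporter, depth and Paneth UMIs, and these cannot be told apart here. A ratio within a library does not move with its total. Of the UMIs of *H2-D1* and *H2-K1* together, *H2-D1* took 51.9% and 54.4% in Lgr5+WT against 29.1% and 30.0% in lineage-traced WT, and within the stem class 49.4% and 51.6% against 30.5% and 30.5%. Both genes are close relatives, as are the *H2-Q* and *H2-T* genes below, and reads that match more than 1 of them can be lost or split in counting, so levels between them are uncertain.

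**Figure D1:**
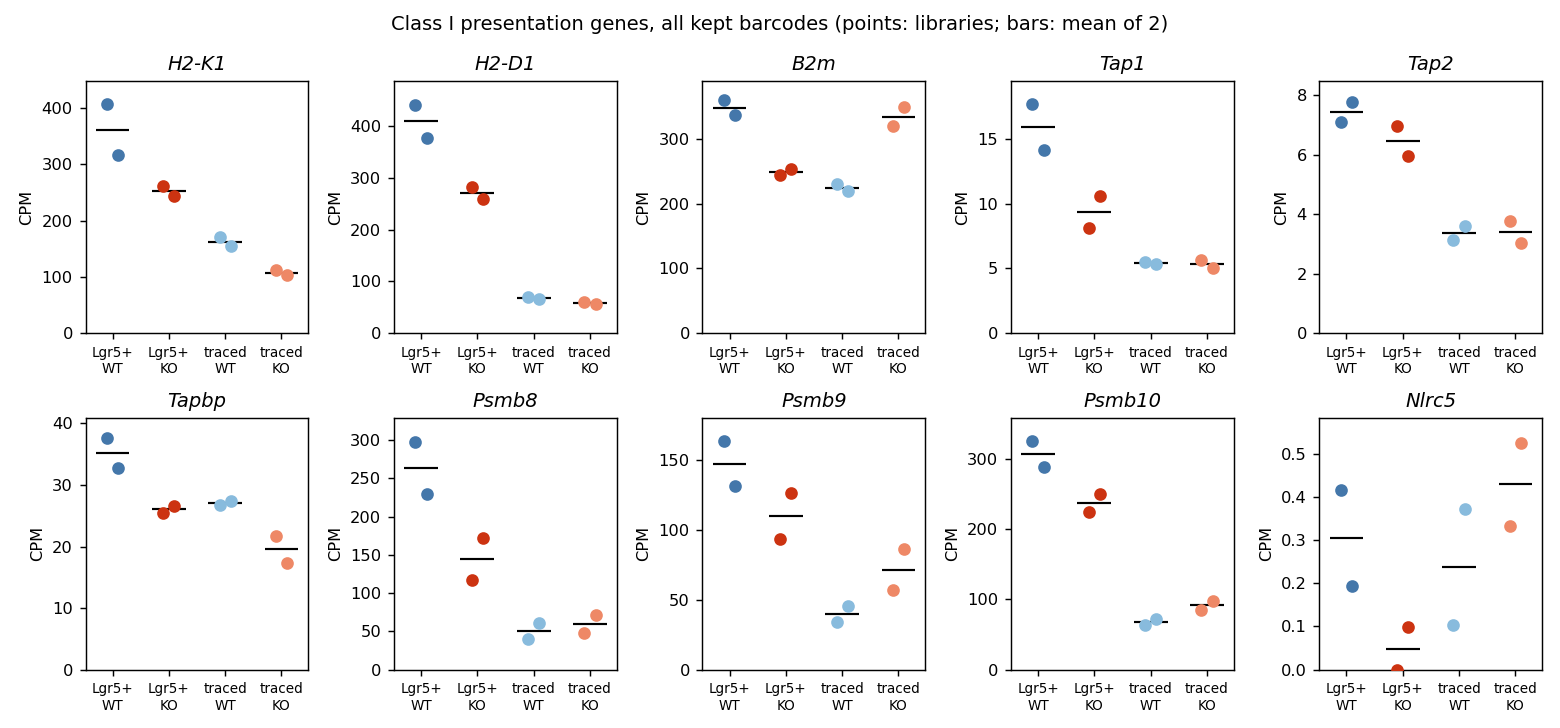
Level of each class I presentation gene over all kept barcodes, in CPM on linear axes that start at 0, with 1 point per library and a bar at the mean of the 2 libraries of a group. In Lgr5+ libraries both *Setdb1*-KO points lie below both WT points for all 10 genes, *Nlrc5* on at most 16 UMIs a library, and in lineage-traced libraries *B2m*, *Psmb9* and *Psmb10* lie above WT and *H2-K1*, *H2-D1* and *Tapbp* below.

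To see where in the epithelium these genes are expressed, barcodes were classed by the UMIs of marker genes that hold none of the members, and each class was tested against the mean of the other 6 with the library as a term (edgeR's quasi-likelihood test, Benjamini-Hochberg adjusted p over all genes tested). The classes were stem, cycling, enterocyte, goblet, Paneth, tuft and enteroendocrine. Genes of each type that were not used for classing led the classes, such as *Guca2a* and *Rep15* in goblet, *Gng13* in tuft and *Pyy* in enteroendocrine barcodes. Enterocytes, the absorptive cells, were compared first. In Lgr5+ libraries 8 of the 9 members tested were higher there, where 29.2% of all genes were. In lineage-traced libraries all 8 tested were, where 24% of all genes were. Higher here means above the mean of the other classes, and not above each of them. *Nlrc5* did not pass the filter on low counts in either experiment, nor *Tap2* in the lineage-traced one.

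In enterocytes of the Lgr5+ libraries the immunoproteasome subunits had log2 differences of 1.52 ± 0.10 (SE) for *Psmb9*, 1.25 ± 0.06 for *Psmb10* and 1.21 ± 0.08 for *Psmb8* (edgeR adjusted p = 2e-18, 1.3e-23 and 2e-17). *Psmb10*, the subunit with trypsin-like activity, had 481 and 433 CPM in Lgr5+WT and 343 and 369 CPM in Lgr5+Setdb1KO enterocytes, a range above that of every other class. *Tap1* and *Tap2* lay in the same range, at 1.24 ± 0.15 and 1.33 ± 0.18 (adjusted p = 1.9e-09 and 1.3e-08) and *B2m* at 1.03 ± 0.06 (adjusted p = 2.9e-19). The heavy chains differed less, with 0.40 ± 0.08 for *H2-K1* and 0.23 ± 0.09 for *H2-D1* (adjusted p = 4.9e-05 and 0.022), and *Tapbp* had 0.13 ± 0.11 (adjusted p = 0.31). By mean CPM over the Lgr5+ libraries, enterocytes had less *H2-D1* (353) than tuft (896), goblet (467) and enteroendocrine barcodes (444). They had less *H2-K1* (326.5) than goblet barcodes (436) and lay beside enteroendocrine barcodes (327.4). *H2-D1* was not called without WT library 1 (adjusted p = 0.076).

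In lineage-traced enterocytes the heavy chains had differences of 1.59 ± 0.17 for *H2-K1* and 0.90 ± 0.19 for *H2-D1* (edgeR adjusted p = 7.2e-13 and 0.00011). With 1 library left out these were 1.22 to 2.14 and 0.30 to 1.51, and *H2-D1* was not called without WT library 1 (adjusted p = 0.43). *H2-D1* had 0 and 42.8 CPM in *Setdb1*-KO enterocytes, on 0 and 22 UMIs, and 55.3 and 46.4 CPM in the stem barcodes of the same libraries. The 0 among 52348 UMIs allows up to 57.3 CPM, so no order of these 2 classes is shown. *B2m* had 1.62 ± 0.16 and *Tapbp* 1.32 ± 0.20 (adjusted p = 2.3e-14 and 8.2e-08). *Tap1* was also higher, by 1.63 ± 0.41 (adjusted p = 0.00079), on 19 and 6 UMIs in WT and 1 and 3 in *Setdb1*-KO enterocytes. Without *Setdb1*-KO library 2 *Tap1* was at 2.48 and *Psmb8* at 1.76. *Psmb8*, *Psmb9* and *Psmb10* had 1.15 ± 0.17, 1.11 ± 0.19 and 0.74 ± 0.15 (adjusted p = 3.8e-08, 1.4e-06 and 3.7e-05). In this class WT and *Setdb1*-KO libraries lay far apart, as given below.

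Tuft cells, chemosensory cells of the epithelium, stood out in a single heavy chain. *H2-D1* had 1174 and 920 CPM in Lgr5+WT and 844 and 647 CPM in Lgr5+Setdb1KO tuft barcodes, against 621 and 527 CPM and 376 and 344 CPM in goblet barcodes, the next class by its mean. Goblet barcodes were above enteroendocrine barcodes (384 to 502 CPM) in 2 of 4 libraries. The lowest tuft value was above the highest value of either. The log2 difference of *H2-D1* in tuft barcodes from the other classes was 1.22 ± 0.09 in Lgr5+ and 1.69 ± 0.26 in lineage-traced libraries (edgeR adjusted p = 3.6e-16 and 2e-07), beside 34.8% and 13.8% of all genes called in either direction. *H2-K1* was not higher there. Its difference was -0.31 ± 0.11 (adjusted p = 0.018) in Lgr5+ tuft barcodes, turning to 0.17 when scaled by library size only, and -0.08 ± 0.28 (adjusted p = 0.91) in lineage-traced ones. The Lgr5+ call was lost without WT library 1, WT library 2 or *Setdb1*-KO library 2 (adjusted p = 0.059, 0.068 and 0.13). *H2-D1* took 73.1% to 77.4% of the UMIs of both heavy chains in Lgr5+ tuft barcodes and 62.5% to 65.4% in 3 lineage-traced libraries, the fourth having 4 tuft barcodes. Immune markers stood at 17.5 to 51.2 CPM in Lgr5+ tuft barcodes against 1.17 to 4.43 CPM in goblet barcodes. Their part in the *H2-D1* values was not tested. *B2m*, *Psmb8*, *Psmb9* and *Psmb10* were called lower in Lgr5+ tuft barcodes, with log2 differences of -0.66, -0.61, -0.70 and -0.57 (adjusted p = 5.1e-08, 0.00016, 0.00087 and 3.3e-07), none of which was called when scaled by library size only. *Psmb9* was not called without *Setdb1*-KO library 2 (adjusted p = 0.071).

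Goblet cells, the mucus-secreting cells, had the most *H2-K1* of the Lgr5+ classes. It stood at 566 and 438 CPM in Lgr5+WT and 389 and 351 CPM in Lgr5+Setdb1KO goblet barcodes, above the next class in 4 of 4 libraries although the ranges overlapped. The log2 difference of *H2-K1* was 0.76 (edgeR adjusted p = 1.2e-11), and *H2-D1*, *Tapbp*, *Psmb10* and *B2m* were also called higher, at 0.57, 0.54, 0.25 and 0.17 (adjusted p = 2e-07, 5.8e-07, 0.00055 and 0.028). These are 5 of 9 members, all higher, beside 44.4% of all genes called in either direction. The *B2m* call was lost with any 1 library left out (adjusted p = 0.068 to 0.29) and that of *Psmb10* without WT library 2 (adjusted p = 0.096). In lineage-traced goblet barcodes *H2-K1* was the 1 member called, at 0.69 (adjusted p = 0.00032), beside 20.9% of all genes.

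Stem and cycling barcodes of the Lgr5+ libraries had members called in both directions. *B2m*, *Psmb8*, *Psmb9* and *Psmb10* were called higher in both classes, with *Psmb9* at 0.34 in stem and 0.89 in cycling barcodes (edgeR adjusted p = 0.0026 and 1.2e-11) and *B2m* at 0.55 and 0.42 (adjusted p = 2e-10 and 9.2e-08). *H2-D1* and *Tapbp* were called lower in both, *H2-D1* at -0.41 and -0.46 (adjusted p = 0.00015 and 3e-05) and *Tapbp* at -0.38 and -0.70 (adjusted p = 0.00042 and 2.5e-09). *H2-K1* and *Tap2* were also lower in cycling barcodes (-0.28 and -0.74, adjusted p = 0.0032 and 0.00062). The stem call of *Psmb10* was lost without WT library 1, WT library 2 or *Setdb1*-KO library 2 (adjusted p = 0.069, 0.088 and 0.14), and in cycling barcodes that of *H2-K1* without WT library 2 and that of *Tap2* without *Setdb1*-KO library 2 (adjusted p = 0.063 and 0.099). That is 6 of 9 members called in stem and 8 of 9 in cycling barcodes, where 53.6% and 59.4% of all genes were called. In lineage-traced libraries 3 of 8 members were called in stem barcodes, all lower (*H2-K1*, *H2-D1* and *Tapbp* at -0.70, -1.03 and -0.87, adjusted p = 0.0012, 1.2e-05 and 0.00034), beside 33.2% of all genes. *Tapbp* was at -0.53 without WT library 1 (adjusted p = 0.082). In cycling barcodes the same 3 were lower (-1.08, -1.23 and -0.73, adjusted p = 9.1e-07, 2.2e-07 and 0.0013) and *Psmb8* and *Psmb9* higher (0.48 and 0.94, adjusted p = 0.0046 and 3.5e-07), beside 43.6% of all genes. *Psmb8* was at 0.80 there without *Setdb1*-KO library 2.

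By the mean over the Lgr5+ libraries, Paneth barcodes had the least CPM of all 9 members tested. For *B2m* the next class, enteroendocrine, was above Paneth in 3 of 4 libraries. In Paneth barcodes of the Lgr5+ libraries *H2-K1* had 75.2 to 122 CPM and *Psmb8* 7.52 to 33.3 CPM, and 4 of 9 members were called lower (*H2-D1*, *Psmb8*, *Psmb9* and *Psmb10*), beside 16.7% of all genes called. Without *Setdb1*-KO library 2 *Psmb8* was at -1.94 in place of -1.06, *Psmb9* at -1.83 in place of -0.81 and *Psmb10* was not called (adjusted p = 0.087), nor was *Psmb9* without WT library 1 (adjusted p = 0.14). In lineage-traced Paneth barcodes 1 of 8 was called lower (*Psmb10*), beside 12.5%. It was at -0.51 (adjusted p = 0.038), at -0.80 without WT library 1 (adjusted p = 0.041) and not called with any other library left out (adjusted p = 0.085 to 0.20). Defensin and lysozyme transcripts led these barcodes. Scaled by library size only, where the median of all genes was -1.67 and -2.10, all 9 and all 8 members were called lower. The share of all genes called at that scaling is not given, so this count does not set the members apart. In enteroendocrine barcodes, the hormone-producing cells, 7 of 9 members were called lower in Lgr5+ libraries, led by *B2m* at -1.34 ± 0.08 (edgeR adjusted p = 7.8e-18), and *Tapbp* was called higher at 0.44 (adjusted p = 0.0025), beside 60.7% of all genes called. *Tapbp* stood there at 62.2 to 67.2 CPM in all 4 libraries, above the range of every other class but tuft, which reached 66.2 CPM. Of these calls those of *H2-K1*, *H2-D1* and *Psmb8* turned to 0.30, 0.56 and 0.13 when scaled by library size only, where the median of all genes was 0.83. *H2-D1* was not called there without WT library 1 (adjusted p = 0.22), and *H2-K1* was at -0.32 in place of -0.54 without *Setdb1*-KO library 2. In lineage-traced enteroendocrine barcodes *B2m* and *Psmb10* were called lower (-1.17 and -0.75, adjusted p = 0.00029 and 0.037), beside 19% of all genes. *Psmb10* was not called with any 1 library left out (adjusted p = 0.069 to 0.17).

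**Figure D2:**
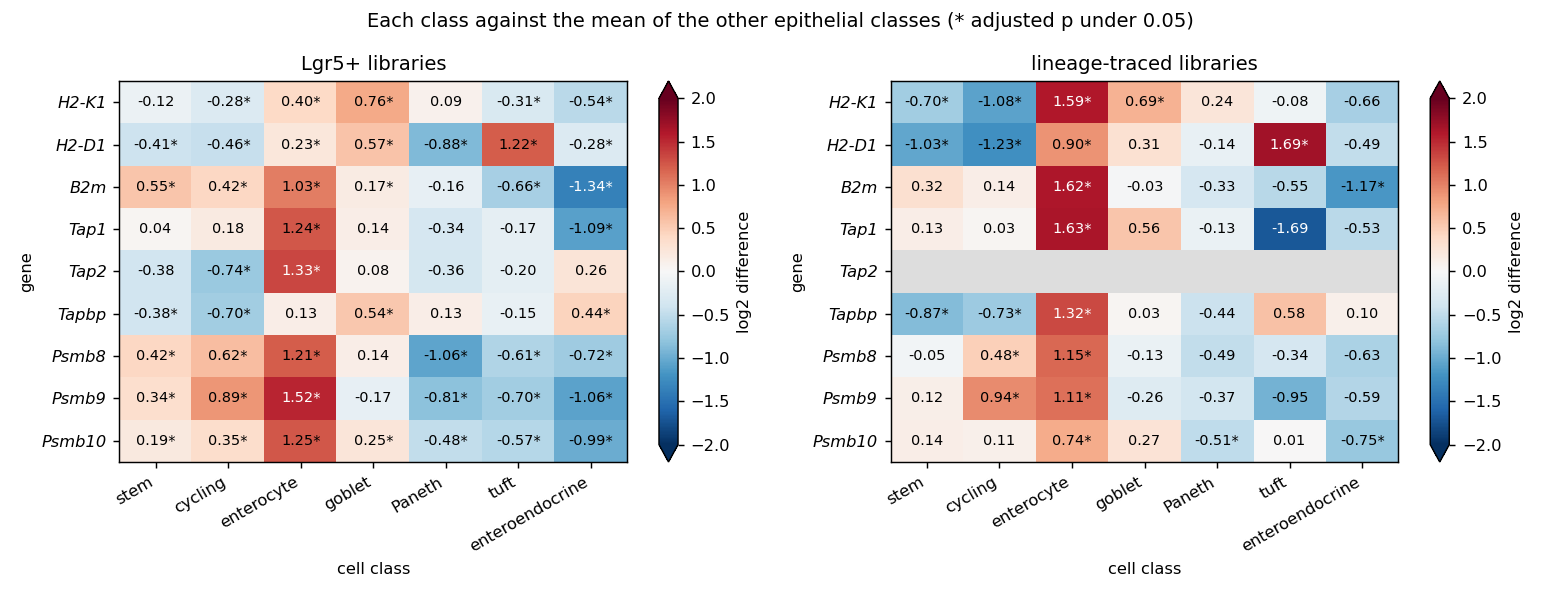
Log2 difference of each gene in each cell class from the mean of the other epithelial classes, in Lgr5+ (left) and lineage-traced libraries (right), with asterisks at an edgeR adjusted p under 0.05 and grey where a gene was not tested. In the enterocyte column all members tested lie above 0 in both experiments, and in the tuft column *H2-D1* is the one called above 0, at 1.22 and 1.69.

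The comparison of Lgr5+Setdb1KO with Lgr5+WT asks how these genes differ when Setdb1 is lost in the stem cell. The study attributes the mature enterocyte, goblet, Paneth, tuft and enteroendocrine cells of this sort to its gating and to incomplete enrichment of GFP+ cells. These cells carry no lineage label, so whether they lost *Setdb1* is not known here. Over all kept barcodes each of the 9 members tested stood lower in both *Setdb1*-KO libraries than in both WT libraries, which 24.6% of all genes did. The median log2 fold change of the 9 was -0.47, against -0.01 over all 13662 genes tested, of which 51.1% were negative. By the test across all genes 1 member was called lower, *H2-D1*, beside 0.527% of all genes called lower and 1.34% called in either direction. In such sums, fewer cells of a type and less RNA per cell cannot be told apart.

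*H2-D1*, a classical heavy chain, went from 440.2 and 377.5 CPM in Lgr5+WT to 281.9 and 258.6 CPM in Lgr5+Setdb1KO. The groups did not overlap, and the log2 fold change was -0.58 ± 0.09 (SE, edgeR adjusted p = 0.034, and not called with the replicate number as a block). It was -0.54 to -0.64 with 1 library left out, and its adjusted p was then above the threshold each time (0.11 without WT library 1, 0.072 without WT library 2, 0.098 without *Setdb1*-KO library 1 and 0.056 without *Setdb1*-KO library 2). *H2-K1* had 407.8 and 316.1 CPM against 262.4 and 244.6 CPM (log2 fold change -0.50 ± 0.10, adjusted p = 0.077). *B2m* had 360.3 and 336.7 CPM against 244.5 and 254.0 CPM (-0.47 ± 0.09, adjusted p = 0.068). None of these 3 genes had overlapping groups.

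The peptide supply genes had values in the same direction. *Tap1* had 17.7 and 14.2 CPM against 8.15 and 10.6 CPM (log2 fold change -0.72 ± 0.17, edgeR adjusted p = 0.097) and *Tapbp* 37.6 and 32.8 CPM against 25.5 and 26.6 CPM (-0.42 ± 0.09, adjusted p = 0.093). *Tap2* had 7.12 and 7.76 CPM against 6.95 and 5.97 CPM (-0.20 ± 0.14, adjusted p = 0.49), and was at -0.33 to -0.08 with 1 library left out. *Psmb8*, the subunit with chymotrypsin-like activity in the immunoproteasome, had -0.83 ± 0.21 (adjusted p = 0.11), with 297.7 and 229.8 CPM against 117.5 and 172.1 CPM. *Psmb9* had 163.5 and 131.1 against 93.6 and 126.1 CPM (-0.40 ± 0.17, adjusted p = 0.30), and *Psmb10* 325.1 and 288.3 against 224.0 and 249.3 CPM (-0.36 ± 0.11, adjusted p = 0.17). *Psmb10* was at -0.50 to -0.23 with 1 library left out. For all 3 subunits *Setdb1*-KO library 1 was the lowest library. Without it *Psmb8* was at -0.54 and *Psmb9* at -0.15 (adjusted p = 0.16 and 0.72), and without *Setdb1*-KO library 2 they were at -1.21 and -0.70 (adjusted p = 0.0032 and 0.019) and *Tap1* was at -1.02 (adjusted p = 0.010). *Nlrc5* gave 16 and 8 UMIs in WT and 0 and 6 in *Setdb1*-KO, and the count of 0 among 27609198 UMIs allows up to 0.109 CPM (3 counts, counting error only). With DESeq2 in place of edgeR 6 members were called, with scaling by library size only 5 and without a filter on low counts 0.

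Immune cells, which carry much class I, were scarcer in Lgr5+Setdb1KO. Barcodes with immune markers numbered 26 and 26 in Lgr5+WT and 7 and 6 in Lgr5+Setdb1KO, and immune markers took 0.0128% and 0.0187% of the UMIs against 0.00216% and 0.00157%. They held at most 1.46% of the UMIs of any member in any of these libraries. With immune and mixed barcodes left out the log2 fold change of *H2-D1* was -0.60 (edgeR adjusted p = 0.032).

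Within the cell classes of the Lgr5+ experiment, 49 of the 51 tests of a member in a class gave a value below 0, beside 49.2% to 51.8% of all genes tested in each class. The tests come from the same libraries and are not independent. Of these tests in 6 classes 3 were called, all lower, beside 0.518% of all 55974 tests of a gene in a class. *H2-D1* had 377 and 316 CPM in Lgr5+WT against 203 and 215 CPM in Lgr5+Setdb1KO stem barcodes (log2 fold change -0.68 ± 0.10, edgeR adjusted p = 0.022). In cycling barcodes it had 366 and 318 against 210 and 206 CPM (-0.70 ± 0.09, adjusted p = 0.010), a call that held with each library left out (adjusted p = 0.0094 to 0.012). The stem call was lost without WT library 1, *Setdb1*-KO library 1 or *Setdb1*-KO library 2 (adjusted p = 0.075, 0.15 and 0.054). *B2m* had 368 and 347 against 248 and 261 CPM in cycling barcodes (-0.48 ± 0.09, adjusted p = 0.049), and was not called with any 1 library left out (adjusted p = 0.058 to 0.16). In enterocyte, goblet, tuft and enteroendocrine barcodes the values of *H2-D1* were -0.47, -0.64, -0.45 and -0.31 (adjusted p = 0.13, 0.35, 0.58 and 0.87). *Psmb8* was at -0.43 to -0.92 in the 6 classes without a call. Paneth barcodes, 14 and 13 in the smallest libraries, were not tested. Free RNA, read in droplets of 100 to 300 UMIs, held less of every member but *Nlrc5* in both Lgr5+Setdb1KO libraries. The share of all genes lower there is not given, so this does not set the members apart. Free RNA had *H2-D1* at 179 and 148 CPM in WT against 102 and 91.5 CPM in *Setdb1*-KO. *Psmb8* was there at 271 and 246 against 103 and 161 CPM. The part of free RNA in the class values was not tested.

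In the lineage-traced libraries a heavy chain and tapasin were called lower. *H2-K1* went from 170.5 and 154.4 CPM in WT to 111.6 and 103.7 CPM in *Setdb1*-KO, which is -1.13 ± 0.27 as log2 fold change (edgeR adjusted p = 0.019). *Tapbp* went from 26.8 and 27.3 CPM to 21.7 and 17.4 CPM (-1.01 ± 0.22, adjusted p = 0.011). These 2 of 9 members were called, both lower, beside 7.19% of all genes called lower and 8.73% in either direction. Without WT library 1 their adjusted p was 0.31 and 0.057, and without WT library 2 it was 0.20 and 0.11. *H2-D1* had 70.0 and 66.2 against 59.7 and 56.3 CPM (-0.76 ± 0.24, adjusted p = 0.077). The median of the 9 was -0.50, against 0.01 over the 12205 genes tested, of which 49.0% were negative. Enterocyte barcodes, scarcer in *Setdb1*-KO library 1 and library 2 than in WT, held 875 of 3262 and 235 of 1248 *H2-K1* UMIs in WT. In *Setdb1*-KO they held 11 of 1004 and 49 of 2773. The part of this difference in cell types in the values over all barcodes was not tested.

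*B2m* and the immunoproteasome subunits were not called there. In CPM *B2m* had 229.9 and 218.7 in WT against 319.4 and 348.7 in *Setdb1*-KO, *Psmb9* 34.0 and 45.7 against 56.8 and 86.1, and *Psmb10* 63.0 and 72.5 against 84.7 and 98.3. *Psmb8* (40.5 and 61.1 against 47.9 and 71.5 CPM), *Tap1* (5.49 and 5.32 against 5.67 and 5.05 CPM) and *Tap2* (3.14 and 3.59 against 3.78 and 3.03 CPM) overlapped between genotypes. *B2m*, *Psmb9* and *Psmb10* thus lay above WT in both libraries in CPM, as 62.4% of all genes did, and *H2-K1*, *H2-D1* and *Tapbp* below, as 8.21% did. Paneth UMIs took a larger share of the WT totals, as given above, and their part in these values was not tested. The test scales libraries by TMM, which sets the middle of all genes near 0. On that scale the log2 fold change was 0.05 ± 0.29 for *B2m*, 0.34 ± 0.31 for *Psmb9*, -0.09 ± 0.27 for *Psmb10*, -0.27 ± 0.32 for *Psmb8*, -0.53 ± 0.23 for *Tap1* and -0.50 ± 0.27 for *Tap2* (adjusted p = 0.94, 0.57, 0.89, 0.68, 0.20 and 0.33). Scaled by library size only, the median of all genes was 0.54, 3316 genes were called higher and 491 lower in place of 188 and 878, and *Psmb9* (0.85, adjusted p = 0.017) was the 1 member called. *H2-K1* was then at -0.59 and *Tapbp* at -0.48 (adjusted p = 0.067 and 0.17). In classed epithelial barcodes without Paneth, chosen after seeing the Paneth shares, *H2-K1* was at -1.14 and *Tapbp* at -1.08 (adjusted p = 0.0023 and 0.0014). These barcodes still hold the enterocytes.

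**Figure D3:**
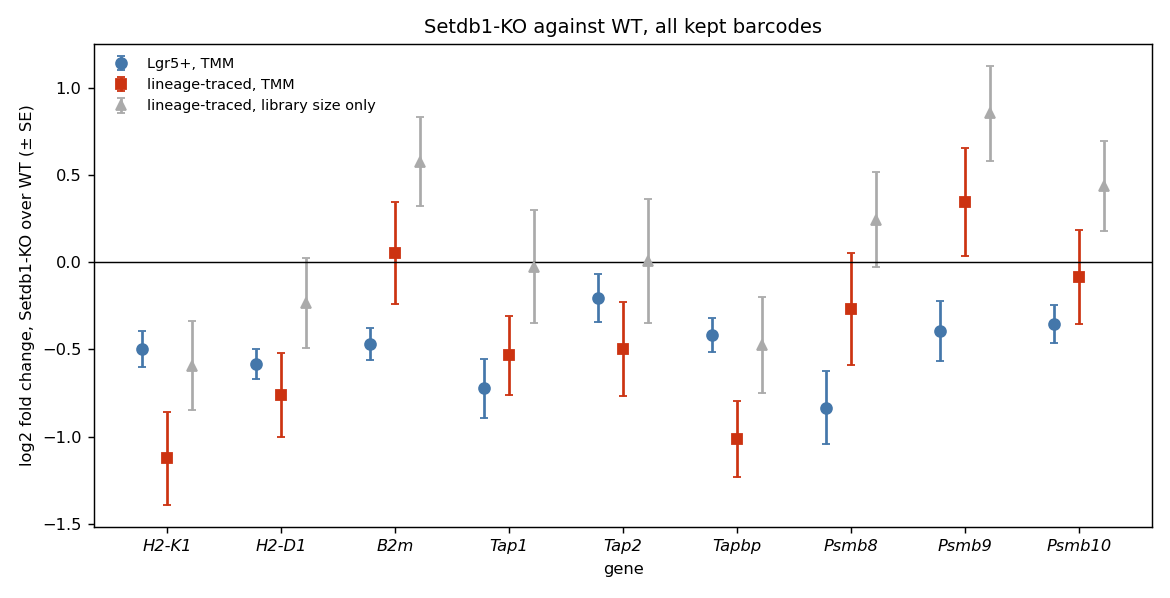
Log2 fold change of *Setdb1*-KO over WT with its standard error, for the 9 members tested over all kept barcodes. Lgr5+ values (circles) all lie below 0, lineage-traced values (squares) run from -1.13 for *H2-K1* to 0.34 for *Psmb9*, and scaling by library size only (triangles) lifts the latter by about the 0.54 of the median of all genes.

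In lineage-traced enterocytes 4 members were called between the genotypes, and whether the effect differed between classes was not tested. *H2-K1* had 723 and 674 CPM in WT against 210 and 95.2 CPM in *Setdb1*-KO enterocyte barcodes, with 875 and 235 against 11 and 49 UMIs (log2 fold change -2.64 ± 0.35, edgeR adjusted p = 4e-12). *H2-D1* had 264 and 215 CPM against 0 and 42.8 CPM (-2.75 ± 0.40, adjusted p = 1.8e-10), and the 0 among 52348 UMIs allows up to 57.3 CPM. *B2m* had 936 and 785 against 420 and 371 CPM (-1.26 ± 0.30, adjusted p = 0.00022), and *Tapbp* 104 and 120 against 76.4 and 9.72 CPM (-2.76 ± 0.48, adjusted p = 2.2e-07). The 4 calls were all lower, beside 27.6% of the 3783 genes tested there called lower and 6.83% of all 31255 tests of a gene in a class over the 5 classes tested. *Psmb8*, *Psmb9* and *Psmb10* were at -0.71, 0.71 and 0.01 (adjusted p = 0.073, 0.059 and 0.98).

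These enterocyte values rest on few *Setdb1*-KO barcodes, 28 and 125 against 859 and 221 in WT. The class also differed in enterocyte genes other than the members. Of the enterocyte genes not used for classing, *Mttp*, which loads lipid onto lipoproteins, stood at 571 and 596 CPM in WT and 325 and 216 CPM in *Setdb1*-KO. *Anpep*, a brush border peptidase, was 469 and 547.5 CPM against 248 and 163 CPM, and *Slc5a1*, a glucose transporter, 692 and 582 CPM against 134 and 122.5 CPM. *Lct*, the lactase, was 168 and 163 CPM in WT, 0 in *Setdb1*-KO library 1 and 13.6 CPM in library 2. Of the 9 markers used for classing, 8 were lower in both *Setdb1*-KO libraries than in both WT libraries, such as *Apoa1*, an apolipoprotein, with 5873 and 6071 CPM against 535 and 573 CPM. *Fabp1*, a fatty acid binding protein, was the exception, with 10870 and 10462 CPM in WT and 26324 and 20195 CPM in *Setdb1*-KO. Paneth markers in the same barcodes were 73786 and 105898 CPM in WT and 13983 and 15392 CPM in *Setdb1*-KO. The part of these in the member values was not tested. Without WT library 1 or WT library 2 the *B2m* call was lost (edgeR adjusted p = 0.15 and 0.35), and without *Setdb1*-KO library 2 that of *Tapbp* (-0.89, adjusted p = 0.47). *H2-D1* would then rest on a count of 0 in *Setdb1*-KO.

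Outside enterocytes none of the 29 tests of a member in a lineage-traced class was called by edgeR or by DESeq2. Of them 3 and 1 had an unadjusted p under 0.05, counts without the share of all genes beside them. In simulated lineage-traced goblet sums edgeR called 28.7% of genes changed by a log2 of 1. A member without a call is thus not shown to be unchanged. In stem barcodes *H2-K1* had 154 and 142 CPM in WT against 91.7 and 93.0 CPM in *Setdb1*-KO (log2 fold change -0.69, edgeR adjusted p = 0.31), and *B2m* had 308 and 289 against 383 and 460 CPM (0.50, adjusted p = 0.58). In goblet barcodes *H2-K1* was at -0.38 and *B2m* at 0.52 (adjusted p = 0.82 and 0.71), in cycling barcodes at -0.45 and 0.47 (adjusted p = 0.98 and 0.97) and in Paneth barcodes at -0.76 and 0.04 (adjusted p = 0.34 and 0.98). Tuft and enteroendocrine barcodes were too few to test. Free RNA, read in droplets of 100 to 300 UMIs, held *B2m* at 206 and 204 CPM in WT and 220 and 237 CPM in *Setdb1*-KO and *H2-K1* at 159 and 138 against 101 and 61.5 CPM. Stem barcodes stood above free RNA in *B2m* in all 4 libraries, and their *H2-K1* values lay on both sides of it. Its part in the values of these shallow barcodes was not tested.

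**Figure D4:**
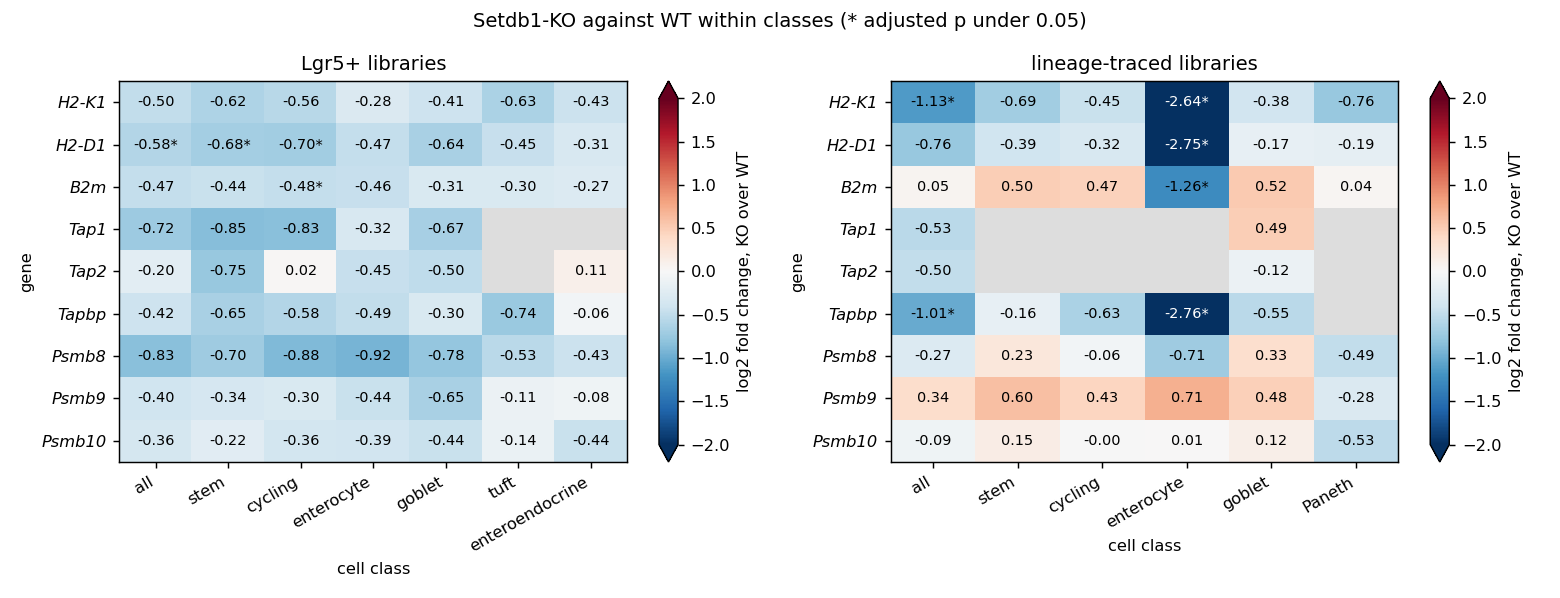
Log2 fold change of *Setdb1*-KO over WT over all kept barcodes (first column) and within each cell class, with asterisks at an edgeR adjusted p under 0.05 and grey where a gene was not tested. The Lgr5+ panel is blue in nearly every cell with values down to -0.92, and in the lineage-traced panel the 4 called values within a class are those of *H2-K1*, *H2-D1*, *B2m* and *Tapbp* in enterocytes.

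Whether the genotype effect differed between the experiments was tested by an interaction term over the 8 libraries. None of the 10 members was called, where 7.58% of all genes were called in either direction. In simulated counts this test called 21.2% of genes changed by a log2 of 1 and 86.7% of those changed by 2. A member without a call is thus not shown to respond alike in both experiments. By edgeR 3 members had an unadjusted p under 0.05 (*H2-K1*, *Tapbp* and *Nlrc5*). This count has no share of all genes beside it and does not set the members apart. The differences (lineage-traced minus Lgr5+) were -0.61 ± 0.26 for *H2-K1*, -0.58 ± 0.20 for *Tapbp*, 0.54 ± 0.29 for *B2m* and 0.77 ± 0.40 for *Psmb9* (edgeR adjusted p = 0.20, 0.11, 0.30 and 0.30). With 1 library left out they ran from -0.73 to -0.47, -0.69 to -0.45, 0.33 to 0.78 and 0.27 to 1.19. Scaled by library size only, 5 members were called, and DESeq2 was not run on this term.

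The immunoproteasome was also read against the subunits it replaces, since the share of a pair does not depend on how a library is scaled. Psmb8 replaces Psmb5, Psmb9 replaces Psmb6 and Psmb10 replaces Psmb7. The *Psmb8* share of *Psmb8* and *Psmb5* UMIs was 43.1% and 37.6% in Lgr5+WT against 22.5% and 31.6% in Lgr5+Setdb1KO. In lineage-traced libraries it was 32.1% and 34.6% in WT against 23.4% and 26.0% in *Setdb1*-KO. Both *Setdb1*-KO libraries lay below both WT libraries in each experiment, the most that 2 against 2 can show (smallest exact two-sided permutation p 0.333).

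The other pairs had the same order over all barcodes of the Lgr5+ libraries. The *Psmb9* share was 29.1% and 25.6% in Lgr5+WT against 17.9% and 23.3% in Lgr5+Setdb1KO, and 20.8% and 23.2% against 23.9% and 25.2% in the lineage-traced experiment, where *Setdb1*-KO was above. The *Psmb10* share was 71.0% and 69.4% against 62.6% and 66.9%, and 54.3% and 57.1% against 53.7% and 52.6% in the lineage-traced experiment, where *Setdb1*-KO was below. The constitutive subunits *Psmb5*, *Psmb6* and *Psmb7* had log2 fold changes of 0.01, 0.13 and -0.01 in Lgr5+ and 0.32, 0.13 and 0.08 in lineage-traced libraries, none of them called (edgeR adjusted p = 0.96, 0.51, 0.98, 0.60, 0.86 and 0.90).

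By class the *Psmb8* share was highest in enterocytes, at 54.6% and 43.3% in Lgr5+WT and 53.7% and 59.5% in lineage-traced WT. *Setdb1*-KO enterocytes had 28.0% and 37.5% in the Lgr5+ and 22.2% and 34.4% in the lineage-traced experiment, the 22.2% resting on 2 *Psmb8* UMIs. Lgr5+WT stem barcodes had 42.6% and 36.3% against 22.7% and 31.3%, and goblet barcodes 35.1% and 34.0% against 20.9% and 27.7%. Tuft barcodes had the smallest share among the Lgr5+ classes other than Paneth, 31.2% and 15.2% in WT against 14.0% and 19.6%, and there the genotypes overlapped.

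**Figure D5:**
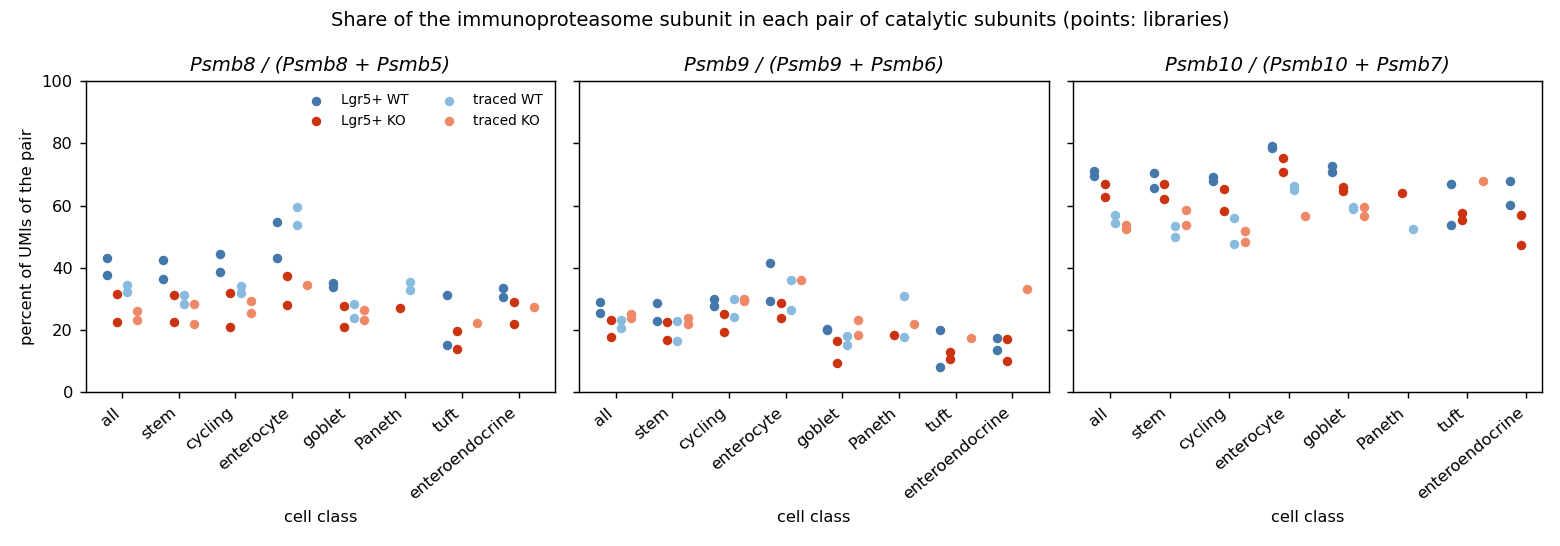
Percent of the UMIs of each pair of catalytic subunits that belong to the immunoproteasome subunit, by cell class, with 1 point per library and sums with under 50 UMIs of the pair left out. Enterocytes lie highest in the left panel, and the Lgr5+Setdb1KO points lie below Lgr5+WT in most classes.

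Of 35 further genes of the class I pathway taken as a list, 34 were in the tables, 32 were tested in Lgr5+ and 31 in lineage-traced libraries. In Lgr5+ libraries 3 were called lower and 0 higher by edgeR, beside 0.527% of all genes called lower, with a median of -0.23 over the list. At an unadjusted p under 0.05 by edgeR 17 were lower and 0 higher, a count without the share of all genes beside it. It does not set the list apart from other genes. DESeq2 called 5 lower and 0 higher, where it called 502 of all genes in either direction. *H2-T23*, which encodes the nonclassical heavy chain Qa-1, went from 77.5 and 65.0 CPM to 51.9 and 43.6 CPM (log2 fold change -0.57, edgeR adjusted p = 0.035). *Irf1*, a transcription factor of the interferon response, went from 61.0 and 47.6 CPM to 33.2 and 33.7 CPM (-0.68, adjusted p = 0.037). *H2-Q7* went from 13.5 and 6.87 CPM to 2.32 and 3.03 CPM (-1.85, adjusted p = 0.044). With 1 library left out, the adjusted p was up to 0.12 for *H2-T23* (lost without WT library 1, WT library 2 or *Setdb1*-KO library 2), up to 0.11 for *Irf1* and up to 0.085 for *H2-Q7* (both lost without WT library 1 or *Setdb1*-KO library 1). *H2-Q7* was at -1.38 without WT library 1. All 5 loading and trimming genes and all 10 regulators had values below 0, some of them close to 0 (*Irf2* at -0.01, adjusted p = 0.96), and *Irf1* was the one called.

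In lineage-traced libraries 3 of the list were called lower and 0 higher by edgeR, beside 7.19% of all genes called lower, and all 3 were other heavy chains. The median over the list was -0.16. At an unadjusted p under 0.05 by edgeR 7 were lower and 0 higher, a count without the share of all genes beside it. It does not set the list apart from other genes. DESeq2 called 3 lower and 0 higher, where it called 738 of all genes in either direction. *H2-Q2* went from 51.1 and 48.4 CPM to 12.7 and 8.04 CPM (log2 fold change -2.84 ± 0.25, edgeR adjusted p = 1e-05). *H2-Q1* had 133 and 44 UMIs in WT against 6 and 3 in *Setdb1*-KO (-5.01 ± 0.45, adjusted p = 1.1e-05), with -6.11 without *Setdb1*-KO library 1 and -3.89 without library 2. *H2-T3*, which encodes the thymus leukaemia antigen of the intestine, went from 15.5 and 17.2 CPM to 11.0 and 11.2 CPM (-1.07 ± 0.23, adjusted p = 0.0096, and 0.075 without WT library 2). *H2-Q2* is an enterocyte gene in these data (log2 difference from the other classes 2.75, adjusted p = 3.7e-25) and was also called lower within lineage-traced stem, cycling, goblet, Paneth and enterocyte barcodes, at -1.99, -2.47, -2.01, -2.27 and -3.26 (adjusted p = 0.0001, 8.9e-07, 9.5e-06, 0.022 and 4.1e-13). Free RNA held *H2-Q2* at 60.0 and 48.5 CPM in lineage-traced WT against 12.4 and 4.50 CPM in *Setdb1*-KO, near its levels over all barcodes. The enterocyte markers used for classing were also lower in *Setdb1*-KO in the other classes, at 2260 and 2490 CPM against 1061 and 933 CPM in stem, 2417 and 2763 against 1346 and 1764 CPM in cycling, 2854 and 4659 against 1699 and 2018 CPM in goblet and 897 and 1225 against 344 and 336 CPM in Paneth barcodes. The part of either in the *H2-Q2* values was not tested.

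A pair of class II genes stood lower in both Lgr5+Setdb1KO libraries than in both WT libraries, and neither was called. *Cd74*, the invariant chain, had 1666 and 1083 CPM against 201 and 482 CPM (log2 fold change -1.96, edgeR adjusted p = 0.078), and *H2-Ab1* 236 and 145 CPM against 38.5 and 69.4 CPM (-1.77, adjusted p = 0.056). In lineage-traced libraries they were at -0.91 and -1.33 (adjusted p = 0.16 and 0.0051).

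The genes whose pattern was most like that of the members were sought over the sums of a class in a library, by Pearson's r with the mean log2(CPM + 1) of the members. Over 28 sums and 4723 genes of the Lgr5+ experiment they were *Psme1* (0.937), which encodes a proteasome activator subunit, *Clint1* (0.935), *Ergic3* (0.932), *Tmem128* (0.930) and *Cfl2* (0.928). Over 27 sums and 4275 genes of the lineage-traced experiment they were *Map2k2* (0.911), *Ftl1* (0.876), *Slc25a3* (0.866), *Jup* (0.866) and *Epn1* (0.858). The sums share libraries, depth and the low Paneth values, and r is given as a description.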

How the data were processed

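Of the series, 8 single-cell RNA-seq libraries (10x Genomics 3′) were used, and 10 other samples (total RNA, H3K9me3 and scATAC) were not used here. The authors deposited raw UMI counts per gene feature and barcode for every barcode, made with Cell Ranger 6.1.1 on mm10 per the labels' processing notes, which also name Seurat 5.0.3. No doublet caller was run here. Kept barcodes were classed by the share of marker UMIs, and barcodes past more than 1 class cutoff were left out as mixed. Cutoffs were moved after looking at the marker shares pooled over libraries, not at the members. Barcodes with a Paneth share like that of free RNA and no other class were set apart.

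UMI counts were summed per library, or per library and class (at least 20 barcodes in each library for a genotype test and 10 for a class sum). The sums were filtered by filterByExpr, scaled by TMM and tested by the quasi-likelihood F test of edgeR 4.0.16 in R 4.3.3, and p-values were adjusted by Benjamini-Hochberg over all genes tested, at a threshold of 0.05. The genotype model had genotype only, the class model library and class, and the interaction model experiment, genotype and their product. DESeq2 1.42.0, other scalings, filters, cutoffs and libraries left out were alternatives. Scripts were tested on simulated data. Libraries are replicates, described by the study as independent biological replicates. CPM of sums are not TMM scaled. Named were all 10 members, *Setdb1*, called genes of the pathway list (up to 4 in each direction), *Psmb5*, *Psmb6*, *Psmb7*, *Cd74*, *H2-Ab1* and the 5 genes most like the members. *Irf2*, *H2-Q2* within classes and the check and enterocyte markers were named after their values were seen. The members and lists were chosen with earlier results of these data known. Sums, levels and likeness used Python 3.11.15, numpy 2.4.6 and pandas 2.3.3.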

Additional observations from a re-analysis of the deposited data

Results flagged for a closer look

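By edgeR's interaction term over the 8 libraries, the *Setdb1*-KO effect differed between the lineage-traced and the Lgr5+ experiment for 5 genes. They were *Setdb1* and genes of the pathway list. Each value is the log2 fold change in lineage-traced minus that in Lgr5+ libraries. *H2-Q1* differed by -5.21 (adjusted p = 0.00019), with 133 and 44 UMIs in WT and 6 and 3 in *Setdb1*-KO lineage-traced libraries and 60 and 64 against 64 and 82 in Lgr5+ libraries. *H2-Q2* differed by -2.58 (adjusted p = 2.16e-05) and *H2-T3* by -0.94 (adjusted p = 0.020). *H2-Q7* differed by 1.76 (adjusted p = 0.042), with 2.09 and 1.86 CPM against 2.56 and 2.62 CPM in lineage-traced libraries and 13.5 and 6.87 CPM against 2.32 and 3.03 CPM in Lgr5+ libraries. *Setdb1* itself, counted at a 3′ end that the deletion leaves in place, differed by 1.09 (adjusted p = 0.033), from log2 fold changes of 0.24 in lineage-traced and -0.85 in Lgr5+ libraries. No explanation of these differences was tested.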

How the results depend on the processing

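Over all kept barcodes of the Lgr5+ libraries, 183 genes and 1 member were called. DESeq2 called 502 genes (311 higher, 191 lower) and 6 members, scaling by library size only 363 and 5, no filter on low counts 35 and 0, and classed epithelium without Paneth, an alternative chosen after seeing the data, 343 genes. Leaving out 1 library gave 65 to 527 genes and 0 to 3 members. In lineage-traced libraries 1066 genes and 2 members were called. Scaling by library size only gave 3807 genes and 1 member, and leaving out 1 library 586 to 2449 genes and 0 to 3 members. The interaction called 1045 genes (208 higher, 837 lower) and 0 members, against 3292 (2775 higher, 517 lower) and 5 by library size only, and 529 to 2118 genes and 0 to 2 members with 1 library left out. Within classes, 3 calls of members in the Lgr5+ experiment became 6 with DESeq2 and 1 to 13 with 1 library left out, and 4 calls in the lineage-traced experiment became 3 to 8. A lone library was then assumed to vary like the others. The 21 calls of a member in a lineage-traced class against the others became 34 by library size only. The share of all genes called within classes at these settings is not given, so these counts do not set the members apart. The cause of the changes was not tested.

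Values that changed sign in lineage-traced libraries were *B2m* (-0.17 without *Setdb1*-KO library 2, -0.0317 with up to 10% mitochondrial UMIs and -0.0267 in classed epithelium without Paneth), *Psmb9* (-0.16 without *Setdb1*-KO library 2, up to 0.72 with another left out), *Psmb8* (0.11 without WT library 2, 0.10 without *Setdb1*-KO library 1, down to -0.76 with another left out) and *Psmb10* (0.07 without WT library 2, 0.14 without *Setdb1*-KO library 1, down to -0.36 with another left out, 0.0015 in classed epithelium without Paneth). Scaling by library size only turned *Psmb8* to 0.24, *Psmb10* to 0.44, *Tap2* to 0.0064, *H2-Q7* to 0.38 and *Irf1* to 0.32. *H2-Q7* was at 0.0049 without *Setdb1*-KO library 1 and at -0.31 without library 2. In the interaction, library size only gave 0.36 for *H2-D1* and 0.21 for *Tap2*, and *Tap1* was at -0.0293 without Lgr5+Setdb1KO library 1 and 0.52 without library 2. In the Lgr5+ experiment *H2-Q1* was at -0.15 without *Setdb1*-KO library 1 and 0.52 without library 2. Against other classes, library size only gave 0.17 for *H2-K1* in Lgr5+ tuft barcodes, 0.30, 0.56 and 0.13 for *H2-K1*, *H2-D1* and *Psmb8* in Lgr5+ enteroendocrine barcodes and 0.27 for *Psmb10* in lineage-traced ones.

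With the replicate number as a block, 51 genes and 0 members were called in Lgr5+ libraries and 2579 genes and 3 members in lineage-traced libraries. The interaction then called 1729 genes and 0 members. Within classes of the Lgr5+ experiment 17 tests of a member were called. The share of all genes called within classes with the block is not given, so the 17 do not set the members apart. Libraries of the same number deviated together with a correlation of -0.0565 over 4534 genes in the Lgr5+ and 0.5755 over 3513 genes in the lineage-traced experiment. With 2 pairs each the numbers were not taken as pairs.

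Halving or doubling the class cutoffs (60% for lineage-traced Paneth) changed no count of calls by more than 1.5 times. In tuft and enteroendocrine barcodes of the lineage-traced libraries, 4 to 158 and 18 to 89 barcodes limit what can be seen.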
